A study of Mus musculus with 6 samples.

Results

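The genes on either side of the immunoglobulin heavy chain (IgH) locus of the mouse were followed in splenic B-cells of 3 genotypes (wt, and mice deficient in the Eμ enhancer or in the 3′RR), resting or stimulated with LPS. They were chosen by name and by position on distal chromosome 12, as 8 genes (Nudt14, Brf1, Pacs2, Mta1, Crip2, Crip1, Tmem121 and Zfp386) of the 46963 in the deposited table. The question was how far the action of the IgH enhancers extends beyond the locus. The cells were CD43- splenic B-cells, that is, splenocytes depleted of cells with CD43, a surface protein of T-cells, myeloid cells and activated B-cells that most resting B-cells lack. The mice were male and female, 8 to 12 weeks old, and all groups shared the same strain background. The Eμ-deficient mice lack the Eμ enhancer with its flanking matrix attachment regions (EμMAR), and the 3′RR-deficient mice lack the 3′ regulatory region. Both deletions are germline, so that every cell of these mice carries them. Cells received 5 μg per ml of lipopolysaccharide (LPS, a bacterial membrane component that activates B-cells) for 2 days, or none. Each of the 6 groups of 3 genotypes and 2 culture states had 1 library. By the labels it holds cells of 2 mice, and the methods of the study describe 4 mice and 2 pools per genotype. The labels describe the resting cells as kept in medium for 2 days, and the methods describe them as taken before stimulation.

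Eμ lies between the JH segments and the Ighm constant gene. The 3′RR is a cluster of enhancers behind Igha, the last constant gene, and it acts over the whole length of the constant region on transcription, class switch recombination and somatic hypermutation. Behind the 3′RR lies a group of CTCF sites, which can limit how far enhancers reach, and behind these come the first genes that are not immunoglobulin genes.

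In mm10 (GRCm38), the annotated IgH genes ran from 113254830, the 3′ end of Igha, to 116010093, the outer end of Ighv1-86, on chromosome 12. This stretch was 2755 kb long and held 215 annotated genes. On the Igha side, where the 3′RR is, Tmem121 came first. It encodes a transmembrane protein of little known function, lay 65.3 kb from Igha (113185930 to 113189523, plus strand) and had 2 merged exons. Crip1 (113146316 to 113153879, plus strand) followed at 101 kb and Crip2 (113140236 to 113145506, plus strand) at 109 kb. Both encode small cysteine-rich proteins with LIM domains. Mta1 (113098278 to 113137206, plus strand), at 118 kb, encodes a subunit of the NuRD chromatin remodelling and histone deacetylase complex. Pacs2 (113014508 to 113074401, plus strand), at 180 kb, encodes a protein that sorts membrane cargo. Brf1 (112960085 to 113000704, minus strand), at 254 kb, encodes a subunit of TFIIIB, the factor that places RNA polymerase III on tRNA genes. Nudt14 (112934291 to 112942124, minus strand), at 313 kb, encodes a pyrophosphatase that cleaves UDP-sugars. Zfp386 (116047724 to 116063360, plus strand), a zinc finger gene, was the sole member on the other side, 37.6 kb beyond Ighv1-86.

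The genes of a library received between 9111974 and 21998587 counts, and all 8 members were tested. The unit of a level is CPM, the count divided by the library size after TMM scaling in edgeR, on a scale common to all libraries. Ratios between 2 libraries carry the Clopper-Pearson 95% interval of their counts, which covers counting error only. The B-cell markers Cd79a, Cd79b, Ms4a1, Cd22 and Pax5 were detected in every library. Cd79a, a chain of the B-cell receptor complex, lay between 237 and 585 CPM, and Pax5, the transcription factor of B-cell identity, between 352 and 579 CPM. The resting Eμ-deficient library stood apart. The summed level of 6 erythroid genes was 20137 CPM there, against 3354 and 3863 CPM in the resting wt and 3′RR-deficient libraries, and that of 8 myeloid genes was 394 CPM against 163 and 168 CPM. The LPS-stimulated 3′RR-deficient library stood apart as well. The log2 ratios of 35 spike-in RNAs of that library to wt had an SD of 1.27. For the remaining comparisons the SD was 0.16 (resting 3′RR-deficient), 0.48 (resting Eμ-deficient) and 0.44 (LPS-stimulated Eμ-deficient). The gene ratios of the library with the SD of 1.27 also rose with GC content. Spearman's rho was 0.56 across the 14600 genes tested, which are not independent replicates. The other comparisons had weaker trends, with a rho of -0.17 (resting 3′RR-deficient), -0.38 (resting Eμ-deficient) and 0.25 (LPS-stimulated Eμ-deficient). Values with the GC trend removed are therefore given beside results of each comparison. The library kit marks strand, and where genes overlapped on opposite strands the counts went to 1 partner. Over 42 such pairs, the gene inside had a median of 0.311% of the counts per base of the gene outside, and in 40 pairs under 10%. Pairs were kept only if the gene outside had at least 1 count per base, which favours a low gene inside. A reverse-stranded kit and a forward counting option are both named for these data. The pairs alone cannot tell which strand was counted.

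The promoters of the genes with the widest spread between genotypes in resting cells are shown first. That of Mta1, the next gene outwards, is shown beside them. Each is the stretch of 250 bases before the RefSeq start site in GRCm38.p6, plus strand, with matches to the GC box GGGCGG on either strand in capitals. The Tmem121 stretch is chr12:113185653-113185902, that of Crip1 is chr12:113151762-113152011, that of Crip2 is chr12:113139986-113140235 and that of Mta1 is chr12:113098028-113098277.
Tmem121: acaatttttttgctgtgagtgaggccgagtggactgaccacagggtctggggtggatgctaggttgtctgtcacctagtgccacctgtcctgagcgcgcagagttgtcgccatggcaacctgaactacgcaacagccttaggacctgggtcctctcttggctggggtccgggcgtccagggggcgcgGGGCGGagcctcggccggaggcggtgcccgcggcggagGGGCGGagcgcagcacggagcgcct
Crip1: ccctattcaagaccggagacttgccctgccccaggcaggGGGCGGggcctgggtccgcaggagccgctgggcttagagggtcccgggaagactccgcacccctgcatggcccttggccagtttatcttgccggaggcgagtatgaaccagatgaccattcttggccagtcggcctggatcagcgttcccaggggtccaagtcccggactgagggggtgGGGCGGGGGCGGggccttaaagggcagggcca
Crip2: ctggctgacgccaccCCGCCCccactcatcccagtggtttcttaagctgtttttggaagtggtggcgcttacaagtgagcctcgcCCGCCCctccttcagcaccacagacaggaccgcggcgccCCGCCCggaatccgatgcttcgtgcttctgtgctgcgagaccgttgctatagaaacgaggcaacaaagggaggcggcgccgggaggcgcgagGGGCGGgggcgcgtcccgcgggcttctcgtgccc
Mta1: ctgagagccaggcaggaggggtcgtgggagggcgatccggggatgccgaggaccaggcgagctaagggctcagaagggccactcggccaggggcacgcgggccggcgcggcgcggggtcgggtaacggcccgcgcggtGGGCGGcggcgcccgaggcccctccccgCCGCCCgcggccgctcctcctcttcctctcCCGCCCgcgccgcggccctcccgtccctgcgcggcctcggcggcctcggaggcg
The stretches held 2 GC boxes in Tmem121, 3 in Crip1, 4 in Crip2 and 3 in Mta1, and some matches touch or overlap. The Crip1 stretch is intronic in longer annotated transcripts of the gene. The RefSeq table held 8 promoter windows of 300 bases for 7 of the 8 members, Brf1 being the other one. Crip2 had a second window, whose 250 bases before the start site (chr12:113140355-113140604, not printed) held 5 GC boxes. The octamer ATGCAAAT, the element shared by immunoglobulin promoters, was found on either strand in 0 of the 8 windows and in 1.74% of 32851 windows of the genome. The letters TATAAA were found in 0 of the 8 windows and in 13.6% of all windows. All 8 windows had a GC box, as did 35.7% of all windows. The windows held between 17 and 60 CpG, against a median of 7 over all windows. Their GC content ran from 51.0% in Zfp386 to 85.7% in Pacs2, against a median of 52.7%. A match, or its absence, describes these letters and no factor.

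The levels of the 8 genes differed widely. Per kb of exon, Crip1 had the highest mean level over the 6 libraries, 62.5 CPM per kb, and 96.2% of tested genes had a level at or below it. Mta1 followed with 7.27 CPM per kb, Brf1 with 4.68, Nudt14 with 2.87, Pacs2 with 2.39, Zfp386 with 2.19, Tmem121 with 1.64 and Crip2 with 1.20 CPM per kb. The lowest library of Crip1 (31.3 CPM per kb) lay above the highest of Mta1 (13.0 CPM per kb), whereas each of the later neighbours in this order overlapped over the libraries. The ratio of the highest to the lowest library was 13.7 for Crip2, 6.29 for Tmem121 and 3.70 for Crip1. It lay between 1.81 and 2.86 for the other 5 genes. In bulk RNA, fewer cells of a type and less RNA per cell cannot be told apart.

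**Figure D1:**
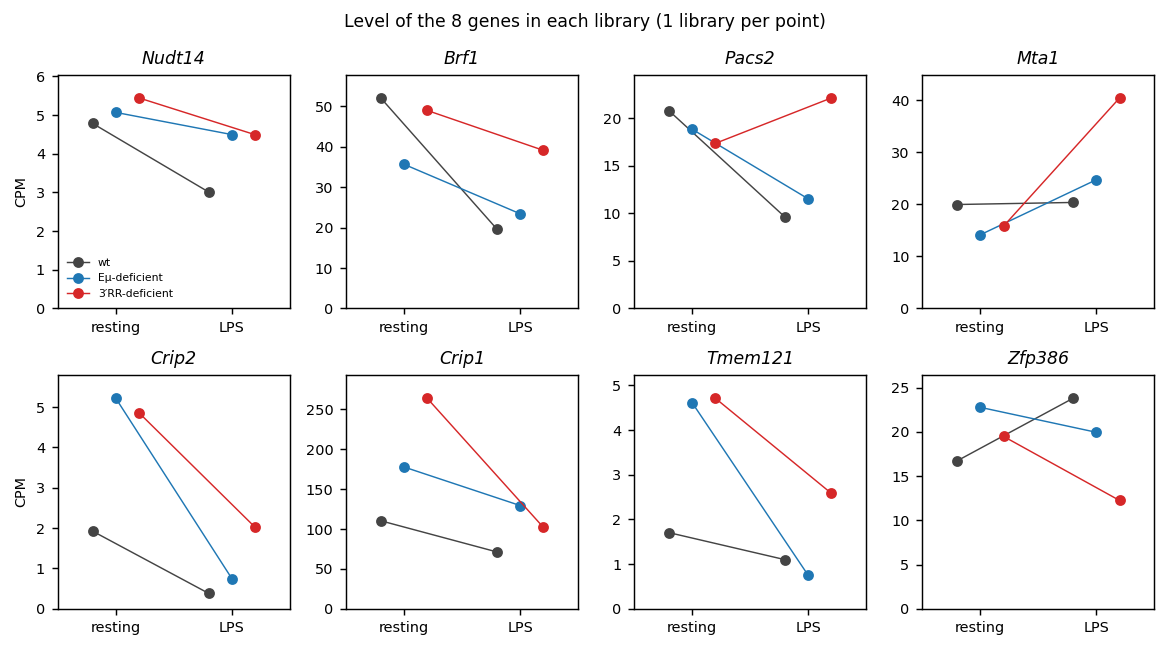
Level of each gene in CPM (linear axis from 0) in resting and LPS-stimulated B-cells, 1 point per library, with a line joining the libraries of a genotype. In resting cells both mutant libraries lie above wt for Tmem121, Crip1 and Crip2, and the 3 genotypes lie close together for Nudt14 and Pacs2.

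In resting B-cells, Tmem121, Crip1 and Crip2 had higher levels in the 3′RR-deficient library than in the wt library, and the other 5 members stayed close to wt. Tmem121 had 31 counts (1.71 CPM) in wt, 97 counts (4.71 CPM) in 3′RR-deficient and 61 counts (4.62 CPM) in Eμ-deficient B-cells. The 3′RR-deficient library was 2.76-fold higher than wt, a log2 ratio of 1.47 (95% interval 0.87 to 2.10). Crip1 had 2007 counts (110 CPM) in wt, 5434 counts (264 CPM) in 3′RR-deficient and 2351 counts (178 CPM) in Eμ-deficient cells. Its 3′RR-deficient library was 2.39-fold higher than wt, a log2 ratio of 1.26 (1.18 to 1.33). Crip2 had 35 counts (1.93 CPM) in wt, 100 counts (4.86 CPM) in 3′RR-deficient and 69 counts (5.22 CPM) in Eμ-deficient cells. Its 3′RR-deficient library was 2.52-fold higher than wt, a log2 ratio of 1.34 (0.77 to 1.94). These 3 of the 8 members reached a log2 ratio of 1, as did 5.38% of all tested genes, and 0 were at -1 or below, where 3.95% of tested genes were. A ratio as high as that of Tmem121 was found in 2.33% of tested genes, as high as that of Crip2 in 2.90% and as high as that of Crip1 in 3.38%.

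Among these 5, Mta1, which ends next to the start of Crip2 on the map, had 363 counts (20.0 CPM) in wt and 325 counts (15.8 CPM) in 3′RR-deficient cells, a log2 ratio of -0.34 (-0.56 to -0.12). Pacs2 had 20.8 and 17.4 CPM, a log2 ratio of -0.26 (-0.47 to -0.05). Brf1 had 52.0 and 48.9 CPM, a log2 ratio of -0.09 (-0.22 to 0.04). Nudt14 had 4.79 and 5.44 CPM, a log2 ratio of 0.19 (-0.23 to 0.61). On the other side of the locus, Zfp386 had 16.7 and 19.5 CPM, a log2 ratio of 0.22 (0.00 to 0.44). The median over the 8 members was 0.20, against 0.02 over all tested genes, and -0.09 without Tmem121, Crip1 and Crip2, genes left out after their values were seen. Inside the locus the direction was the opposite. Igha, the constant gene closest to Tmem121, had 1304 counts (71.7 CPM) in wt and 88 counts (4.28 CPM) in 3′RR-deficient cells, a log2 ratio of -4.07 (-4.40 to -3.76), and Ighm had a log2 ratio of -1.35 (-1.38 to -1.32). Removing the GC trend left the 3 high members at 1.55, 1.32 and 1.42 for Tmem121, Crip1 and Crip2. The summed level of 8 T-cell markers was 34.1 CPM in this library and 28.5 CPM in wt, with 7 of 8 higher. That of 8 myeloid markers was 168 CPM against 163 CPM, with 6 of 8 higher. Lyz2 (59.1 against 79.0 CPM) and Itgam (11.4 against 16.8 CPM) were lower. Among the higher ones, S100a8 had 155 against 11 counts and S100a9 had 122 against 23 counts. The sum of 3 follicular B-cell genes was 713 against 551 CPM, with 3 of 3 higher. That of 6 marginal zone B-cell genes was 705 against 805 CPM, with 3 of 6 higher. The part of T-cells, myeloid cells and B-cell subsets in the results was not tested.

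In the resting Eμ-deficient library, Tmem121 and Crip2 were higher than wt to a similar degree. Tmem121 had a log2 ratio of 1.44 (0.79 to 2.11) and Crip2 of 1.44 (0.83 to 2.07). Crip1 had a log2 ratio of 0.69 (0.60 to 0.77). Here 2 of 8 members reached a log2 ratio of 1, as did 12.6% of all tested genes, and 0 were at -1 or below, where 5.62% were. A ratio as high as that of Tmem121 was found in 7.28% of tested genes. This comparison and the previous one share the wt library, in which Tmem121 and Crip2 had only 31 and 35 counts, so that they are not independent. Brf1 (35.6 CPM) and Mta1 (14.2 CPM) were lower than wt, with log2 ratios of -0.55 (-0.71 to -0.39) and -0.50 (-0.76 to -0.24). Pacs2, at -0.14 (-0.38 to 0.09), and Nudt14, at 0.08 (-0.40 to 0.56), did not differ from wt beyond counting error. Zfp386 had 22.8 CPM and a log2 ratio of 0.45 (0.21 to 0.68). With the GC trend removed, the ratios were 1.87 for Tmem121, 1.89 for Crip2, 0.98 for Crip1, -0.10 for Mta1 and 0.08 for Zfp386. Igha had a log2 ratio of 0.14 (0.02 to 0.26) and Ighm of 1.32 (1.30 to 1.34). The erythroid and myeloid markers named above moved with this comparison, with 6 of 6 and 8 of 8 genes higher than wt, and T-cell markers had 50.02 CPM against 28.5 CPM. The summed level of 5 plasma cell genes was 2232 CPM against 546 CPM, with 4 of 5 higher. Jchain alone had 1734 against 113 CPM, and Irf4 had 366 against 372 CPM. The sum of marginal zone B-cell genes was 1205 against 805 CPM and that of follicular B-cell genes 329 against 551 CPM. Their part in the ratios was not tested.

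**Figure D2:**
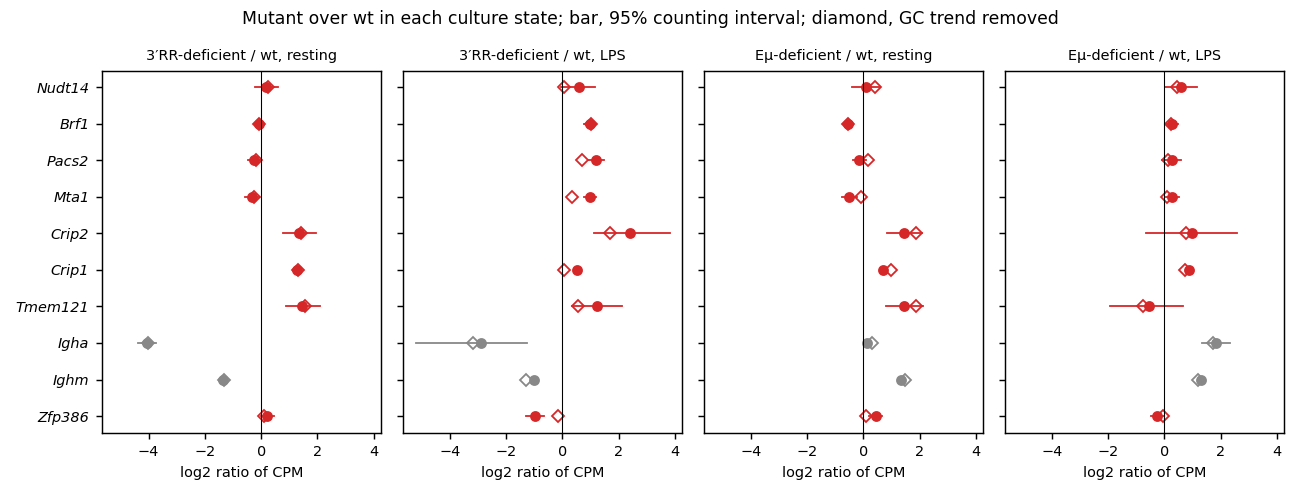
Log2 ratio of CPM of each mutant library to the wt library of the same culture state, with the 8 genes in red and Igha and Ighm in grey, in map order. Filled points are the ratios, bars their 95% counting intervals and open diamonds the ratios with the GC trend removed. In the resting 3′RR-deficient panel Tmem121, Crip1 and Crip2 lie between 1.26 and 1.47 and Igha at -4.07.

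After LPS stimulation, the higher ratios in the 3′RR-deficient library were not limited to Tmem121, Crip1 and Crip2. Crip2 had only 8 counts (0.38 CPM) in wt and 18 counts (2.02 CPM) in 3′RR-deficient cells, a log2 ratio of 2.403 (1.13 to 3.81). Tmem121 had 23 counts in each, that is, 1.099 and 2.58 CPM and a log2 ratio of 1.23 (0.33 to 2.13). Pacs2 had 201 and 197 counts, 9.61 and 22.1 CPM, and a log2 ratio of 1.20 (0.91 to 1.49). These 3 of 8 members reached a log2 ratio of 1, as did 15.9% of tested genes, and 0 were at -1 or below, where 10.7% were. Brf1 with 19.6 and 39.1 CPM, at 0.99 (0.78 to 1.20), and Mta1 with 20.4 and 40.4 CPM, at 0.99 (0.78 to 1.20), came close to it. Crip1 had 71.3 and 102 CPM, a log2 ratio of 0.52 (0.40 to 0.64), and Nudt14 had 3.01 and 4.49 CPM, a log2 ratio of 0.58 (-0.03 to 1.17). Zfp386, the member with the lowest GC content (40.5%), had 23.8 and 12.2 CPM and a log2 ratio of -0.96 (-1.27 to -0.66).

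The GC trend of that library moved most of these values. Without it the ratios were 1.71 for Crip2, 1.02 for Brf1, 0.69 for Pacs2, 0.56 for Tmem121, 0.36 for Mta1, 0.06 for Nudt14, 0.05 for Crip1 and -0.15 for Zfp386. The median of the members went from 0.99 to 0.46, beside 0.11 over all tested genes. With 1 CPM added to each level before the logarithm, the ratio of Crip2 was 1.13. Igha had 52 counts in wt and 3 in 3′RR-deficient cells, and the upper limit of its log2 ratio was -1.26. Beside the LPS-stimulated wt library, the Eμ-deficient library had 0 of 8 members at a log2 ratio of 1, where 9.12% of tested genes were, and 0 at -1 or below, where 3.4% were. Crip1 had 129.5 CPM and a log2 ratio of 0.86 (0.75 to 0.97) there, and 0.72 with the GC trend removed. Crip2 had 8 counts in both libraries, 0.75 against 0.38 CPM, and a log2 ratio of 0.97 (-0.64 to 2.58). Tmem121 had 8 counts against 23 in wt, a log2 ratio of -0.55 (-1.92 to 0.66), so that a difference was not detectable at this depth. The other 5 members lay between -0.25 in Zfp386 and 0.58 in Nudt14. The comparisons of both mutants share the LPS-stimulated wt library. After LPS the erythroid genes summed to 52.9 CPM in wt, 670 CPM in Eμ-deficient and 133 CPM in 3′RR-deficient cells, and the plasma cell genes to 581, 1589 and 891 CPM. Their part in the ratios was not tested either.

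Over both culture states, the quasi-likelihood test of edgeR, fitted with additive terms for genotype and state, called 0 of 8 members for either deletion. The background was low too. For the 3′RR deletion 0.171% of tested genes were called higher and 0.507% lower, and for the Eμ deletion 0.911% and 0.253%. At an unadjusted p below 0.05 there were 3 of 8 members for the 3′RR deletion, beside 831 of all 14600 genes, and 2 of 8 for the Eμ deletion, beside 1267 of 14600. The DESeq2 Wald test also called 0 members. A value that misses the threshold here does not show that the levels were the same. For the 3′RR deletion the log2 fold change was 1.79 (SE 0.53) for Crip2 (adjusted p = 0.401), 1.32 (SE 0.55) for Tmem121 (adjusted p = 0.814) and 0.91 (SE 0.33) for Crip1 (adjusted p = 0.648). For the Eμ deletion it was 1.29 (SE 0.53) for Crip2 (adjusted p = 0.501), 0.78 (SE 0.33) for Crip1 (adjusted p = 0.518) and 0.67 (SE 0.57) for Tmem121 (adjusted p = 0.976). The adjusted p of Crip2 ranged from 0.0725 to 1 for the 3′RR deletion over the settings tried. The remaining 5 members had log2 fold changes between -0.37 and 0.48 for the 3′RR deletion and between -0.18 and 0.32 for the Eμ deletion. In the same fit Igha fell by 3.68 on the log2 scale in 3′RR-deficient cells (SE 0.50, adjusted p = 0.0137). The model has 2 residual degrees of freedom, and edgeR moderates the error of each gene towards a trend over all genes. That error is the lack of fit of the additive terms rather than the spread between mice. Each SE of this fit is the absolute log2 fold change divided by the square root of its F statistic.

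After LPS stimulation, Crip2, Crip1 and Brf1 fell. The edgeR model, with genotype as a block, called 3 of 8 members lower and 0 higher, where 21.1% of tested genes were called lower and 19.7% higher. Crip2 fell by 2.06 on the log2 scale (SE 0.44, adjusted p = 0.00573), and its counts went from 35 to 8 in wt, from 69 to 8 in Eμ-deficient and from 100 to 18 in 3′RR-deficient cells. The LPS-stimulated libraries had 0.38 to 2.02 CPM and the resting ones 1.93 to 5.22 CPM, so that the states overlapped, although each genotype was lower after LPS. Brf1 fell by 0.78 (SE 0.27, adjusted p = 0.0427), with log2 ratios of LPS to resting cells of -1.41 in wt, -0.61 in Eμ-deficient and -0.32 in 3′RR-deficient cells. Crip1 fell by 0.82 (SE 0.27, adjusted p = 0.0373), with ratios of -0.63 (-0.73 to -0.53) in wt, -0.46 (-0.55 to -0.36) in Eμ-deficient and -1.37 (-1.47 to -1.27) in 3′RR-deficient cells. Without the 3′RR-deficient libraries the value of Crip1 was -0.56 (adjusted p = 0.250), without the LPS-stimulated 3′RR-deficient library alone -0.54 (adjusted p = 0.282), and without the Eμ-deficient libraries -0.91 (adjusted p = 0.150). With the GC trend removed it was -0.73 (adjusted p = 0.0529), so that Crip1 was not called there either. Brf1 was not called without the wt (-0.44, adjusted p = 0.0862) or the Eμ-deficient libraries (-0.77, adjusted p = 0.179). Markers of other cells were lower after LPS as well. The myeloid genes summed to 163, 394 and 168 CPM in resting and to 25.6, 39.9 and 33.8 CPM in LPS-stimulated wt, Eμ-deficient and 3′RR-deficient cells, and the T-cell genes to 28.5, 50.02 and 34.1 CPM and to 6.55, 20.04 and 13.1 CPM. The erythroid genes summed to 3354, 20137 and 3863 CPM in resting cells and were lower in all 3 genotypes after LPS, with the values given above. The part of these cells in the falls was not tested. Over all settings the adjusted p ranged from 0.00607 to 0.282 for Crip1, from 0.0266 to 0.179 for Brf1 and from 3.28e-05 to 0.0497 for Crip2.

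The other members did not pass the test. Tmem121 had a log2 fold change of -1.29 (SE 0.46, adjusted p = 0.0503), just outside the threshold of 0.05, and was lower after LPS in 3 of 3 genotypes. Its adjusted p ranged from 0.0123 to 0.453, and it passed in 6 of the 11 other settings. These were the fits without wt (-1.57, adjusted p = 0.0123), without the 3′RR-deficient libraries (-1.56, adjusted p = 0.0490) or without the LPS-stimulated one alone (-1.54, adjusted p = 0.0457), total-count scaling (adjusted p = 0.0374), and the fits with no filter (adjusted p = 0.0137) or a filter at 50 counts (adjusted p = 0.0463). Mta1 had a value of 0.73 (SE 0.29, adjusted p = 0.0712), with ratios of 0.03 in wt, 0.81 in Eμ-deficient and 1.36 in 3′RR-deficient cells, and passed as higher without wt (1.11, adjusted p = 0.000862), with the GC trend removed (0.89, adjusted p = 0.00666) and without a filter on low counts (0.76, adjusted p = 0.0290). Its adjusted p ranged from 0.000862 to 0.423 over the settings. Nudt14 (-0.38, adjusted p = 0.349), Pacs2 (-0.49, adjusted p = 0.234) and Zfp386 (-0.11, adjusted p = 0.778) did not pass, and for Pacs2 and Zfp386 the genotypes went different ways. Pacs2 went from 20.8 to 9.61 CPM in wt and from 17.4 to 22.1 CPM in 3′RR-deficient cells. Zfp386 went from 16.7 to 23.8 CPM in wt and from 19.5 to 12.2 CPM in 3′RR-deficient cells. The median log2 fold change of the members was -0.64, against -0.07 over all tested genes. Among the 17 other tested genes within 1 Mb of the locus, 5 were called higher and 4 lower, with a median of -0.18. Igha fell by 3.94 (SE 0.39, adjusted p = 0.000170).

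**Figure D3:**
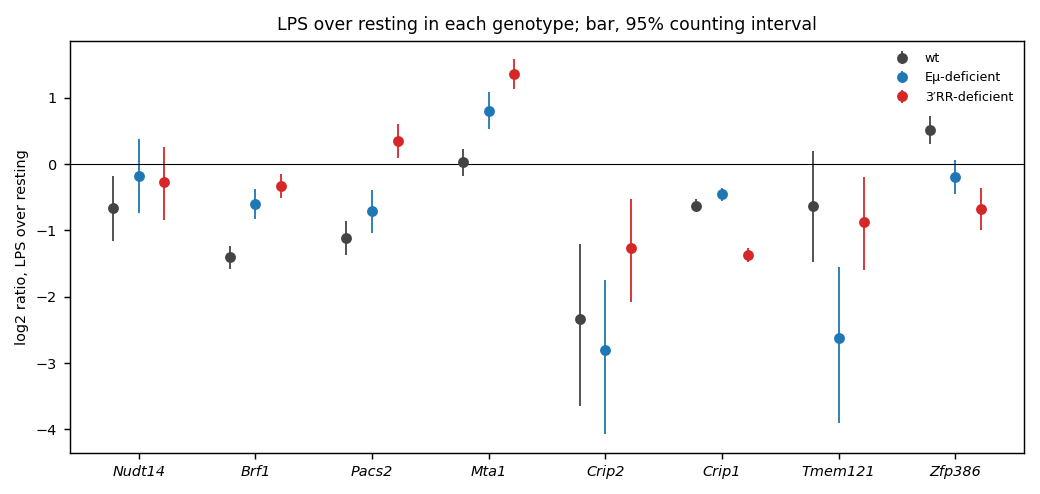
Log2 ratio of LPS-stimulated to resting CPM for each gene in wt, Eμ-deficient and 3′RR-deficient cells, with 95% counting intervals. Crip2, Crip1 and Brf1 lie below 0 in all 3 genotypes, and Mta1 runs from 0.03 in wt to 1.36 in 3′RR-deficient cells.

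By distance, the 3 members with higher levels in resting 3′RR-deficient cells were among the genes closest to Igha. Of the 5 tested genes within 150 kb on that side, 3 had a log2 ratio of 1 or more, beside 5.38% of all tested genes. The limit was set with the values known, and the 3 are Tmem121, Crip1 and Crip2 again. The count therefore restates their values. Mta1, in the same window, was at -0.34. The gene between Crip1 and Tmem121, 4930427A07Rik at 88.8 kb, had 167 counts in wt and 315 counts in 3′RR-deficient cells, a log2 ratio of 0.74 (0.46 to 1.02). The 5 genes had a median of 1.26, and 1.32 with the GC trend removed. The 16 tested genes from 150 kb to 1 Mb on that side had a median of -0.02, and 1 of them, Gm30238 with 8 and 22 counts, reached a log2 ratio of 1. Further out on that side, from 1 to 5 Mb, 4 of 38 genes did (10.5%), with a median of 0.08 over the 38. The 4 tested genes within 1 Mb on the Ighv side, Zfp386 included, lay between -0.58 and 0.57. In resting Eμ-deficient cells, the 5 genes near Igha had a median of 0.69, 4930427A07Rik was at 0.00 (-0.35 to 0.34), and the 16 genes further out had a median of -0.21. With the GC trend removed these medians were 0.98 and 0.12. In LPS-stimulated 3′RR-deficient cells the medians of the near and far genes were 0.99 and 1.04, and 0.37 and 0.42 with the GC trend removed, so that near and far genes did not separate there. With 1 library per group these distances carry no test.

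**Figure D4:**
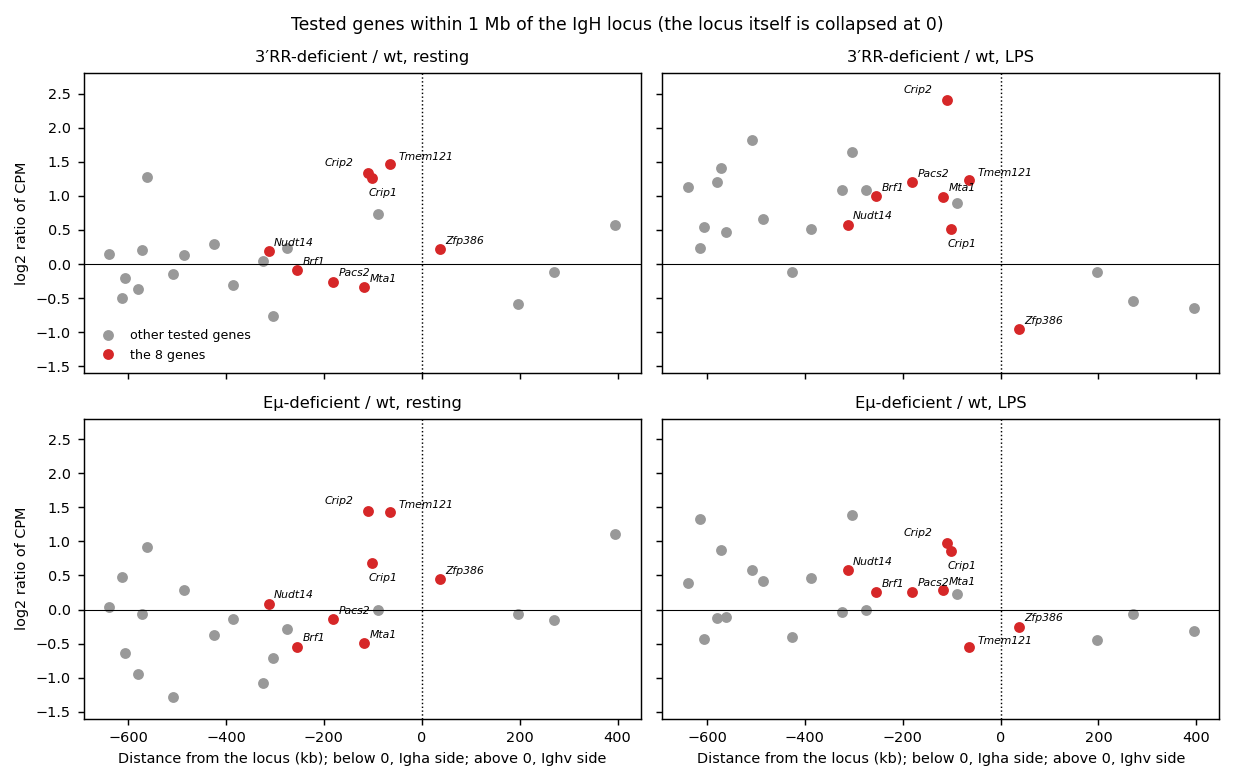
Log2 ratio of CPM of the mutant to the wt library (vertical axis) for the 25 tested genes within 1 Mb of the locus, against the distance from Igha (below 0) or from the outermost Ighv gene (above 0) in kb, with the 8 genes in red and the other 17 in grey. In the resting 3′RR-deficient panel, Tmem121, Crip1 and Crip2 stand at 1.26 to 1.47 next to the locus, and Mta1 beside them at -0.34.

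Across the 6 libraries, Tmem121 and Crip2 had the most similar profiles of all pairs of members, with a Pearson's r of 0.92 of log2 CPM, against 0.69 for Tmem121 and Crip1 and -0.39 for Tmem121 and Mta1. These points share libraries and the fall of Crip2 after LPS, and they are given as a description. Among 9601 tested genes with a mean of 5 CPM or more, those most like Tmem121 were Scnm1 (r = 0.96), Pvr (0.95) and Snora31 (0.95), on chromosomes 3, 7 and 14. Those most like Crip1 were Nsmce2 (0.98), Sra1 (0.97) and Snapc1 (0.97), on chromosomes 15, 18 and 12. An r of 0.9 or more was reached with Tmem121 by 0.26% and with Crip1 by 0.375% of these genes. Pearson's r takes no account of the size of a change. Scnm1 lay between 11.7 and 15.2 CPM and Pvr between 7.12 and 10.1 CPM, whereas Tmem121 lay between 0.75 and 4.71 CPM. Crip2, with a mean of 2.53 CPM, was below the limit for this search.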

How the data were processed

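RNA of CD43- splenic B-cells was sequenced in 6 libraries, 1 per genotype and culture state. The table deposited by the authors holds raw counts for each gene name. The authors had depleted ribosomal RNA, prepared stranded libraries, mapped paired reads to mm10 with STAR 2.4.0a and counted reads with featureCounts of Subread 1.4.6-p1. Multi-mapping reads were counted, so that near-identical copies, such as other zinc finger genes for Zfp386, can share reads. The labels and the methods differ on the extraction kit, and 1 protocol text of the labels gives LPS in mg instead of μg per ml.

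Coordinates, exons and GC content come from GENCODE M21 (GRCm38), in which 44131 names matched directly and 764 through an older name. Promoters are RefSeq sequences (GRCm38.p6). The 92 spike-in RNAs were left out of library sizes. Counts were scaled with TMM in edgeR 4.0.16 (R 4.3.3). The 14600 genes with 10 counts or more in 2 or more libraries were fitted with an additive quasi-likelihood model of genotype and state, adjusted by the Benjamini-Hochberg method, with a threshold of 0.05. Within a state no test was possible, and the Clopper-Pearson interval of the counts (scipy 1.17.1) covers counting error only. A library under 3 counts was set to 3 counts in ratios. The GC trend is a lowess curve with a span of 0.3. A log2 ratio of 1 is a 2-fold difference. The reference genome is that of C57BL/6 mice, another strain than the mice studied. The fit was tested on simulated data. The alternatives were total-count scaling, DESeq2 1.42.0 size factors and Wald test, other filters, log2(CPM + 1), scaling without immunoglobulin genes, GC removal, no genotype block, fits to the compared genotypes and leaving out genotypes or the LPS-stimulated 3′RR-deficient library.

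The genes named are the 8 members, reference genes of the locus, tested neighbours from a fixed list and the 3 genes most like Tmem121 and Crip1. Members, lists and windows were chosen with earlier results of these data known.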

Additional observations from a re-analysis of the deposited data

Results flagged for a closer look

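Several members had a ratio to wt on opposite sides of 0 in the culture states with both counting intervals clear of 0, and none of these differences was tested, since each rests on single libraries. For the 3′RR deletion, the log2 ratio after LPS minus that in resting cells was 1.46 for Pacs2, 1.33 for Mta1 and -1.18 for Zfp386. For the Eμ deletion it was 0.80 for Brf1, 0.78 for Mta1 and -0.70 for Zfp386. Where an interval included 0, the ratios of Tmem121 (Eμ, -1.99), Brf1 (3′RR, 1.08) and Pacs2 (Eμ, 0.40) also lay on opposite sides. Read as the response to LPS, the log2 ratio of Pacs2 was higher in 3′RR-deficient than in wt cells by 1.46 and than in Eμ-deficient cells by 1.06, with opposite directions in each pair, and the response of Zfp386 in 3′RR-deficient minus wt cells was -1.18. Several of these values moved when the GC trend was removed. For the Eμ deletion, the resting and LPS ratios were then -0.10 and 0.10 for Mta1 and 0.08 and -0.05 for Zfp386. Those of Brf1 were -0.56 and 0.25. For the 3′RR deletion, they were -0.20 and 0.69 for Pacs2, -0.26 and 0.36 for Mta1 and 0.09 and -0.15 for Zfp386. Brf1 stayed at -0.09 and 1.02 there.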

How the results depend on the processing

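No call for a deletion was gained under any of the 8 other settings of each fit. The number of members called for LPS was 3, with 5 when genes of low counts were kept and 1 without the genotype block (no replicate block, Crip2 alone). It ranged from 1 to 4 when a genotype was left out, the lowest without the Eμ-deficient libraries, and was 3 without the LPS-stimulated 3′RR-deficient library. GC removal also gave 3, with Mta1 called higher and Crip1 not called. No paired analysis by replicate was possible because each group has 1 library. The median ratio of the members in resting cells went from 0.20 to -0.088 (3′RR) and from 0.26 to -0.14 (Eμ) without Tmem121, Crip1 and Crip2, an alternative chosen after seeing the data. In LPS-stimulated 3′RR-deficient cells, GC removal gave 0.46 for the members and 0.36 for the genes within 1 Mb, and the log2(CPM + 1) scale gave 0.53 for the latter, against 0.99 and 0.90. The cause was not tested. Scaling by total counts moved all resting ratios by -0.19 (3′RR) and -0.20 (Eμ), which left Crip1 at 1.07 and 0.49. Counts of genes called also depend on the setting. For the 3′RR deletion, 25 rose and 74 fell, against 56 and 122 with DESeq2, 135 and 204 without a filter, 38 and 83 without the LPS-stimulated 3′RR-deficient library, and 53 and 124 with only wt and 3′RR-deficient libraries. For the Eμ deletion, 133 rose and 37 fell, against 277 and 63, 484 and 121, 348 and 73 and, with only wt and Eμ-deficient libraries, 325 and 68. For LPS, 3079 fell, against 1845 without the Eμ-deficient libraries. Depth limits Crip2 and Tmem121, which had 8 to 100 counts.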
